A study of Mus musculus with 2 samples.

Results

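The 4 Hox clusters of the mouse were examined in melan-a cells for EP300, an enzyme that acetylates histones and is recruited to active enhancers, and for monomethylation of lysine 4 on histone H3 (H3K4me1), a mark found at enhancers. Members were found by position: every deposited EP300 peak or H3K4me1 region that overlapped 1 of 4 windows of the mm9 genome. Together these windows stand for 38 Hox genes, and they were chosen with earlier results of these data known. The windows were chromosome 6, 52080000 to 52230000 (HoxA, 10 genes), chromosome 11, 96050000 to 96240000 (HoxB, 10 genes), chromosome 15, 102730000 to 102880000 (HoxC, 9 genes), and chromosome 2, 74480000 to 74620000 (HoxD, 9 genes). They held 4 of the 8451 EP300 peaks of replicate 1, 5 of the 10351 of replicate 2, and 27 of the 59923 H3K4me1 regions.

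Melan-a is an immortal line of mouse melanocytes, the pigment cells of the skin and hair, labelled as C57BL/6 Ink4a -/- and given no treatment. Both samples are this line, 1 precipitated with an antibody to p300 and 1 with an antibody to H3K4me1, and each stands for 2 replicates that no label describes as separate cultures. The EP300 lists come from 31439027 and 32355042 filtered tags, each set against its own control library, while the depth behind the single H3K4me1 list is unknown. The deposited lists hold no gene names and no mm9 annotation was used, so features were placed within a cluster but not assigned to single genes, and the melanocyte label was not checked against marker genes.

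Hox genes encode homeodomain transcription factors that give cells their position along the body axis. In each cluster the genes lie in the order in which they are used from head to tail, and the clusters arose by duplication, so that genes of the same number in different clusters are paralogs. Melanocytes descend from the neural crest, whose most anterior cells lack Hox expression while those of the trunk have it. By the RefSeq order of GRCm38.p6, which matched all 38 members by symbol, HoxA runs from Hoxa2 at its low-coordinate end to Hoxa13 at its high-coordinate end. The other clusters run the opposite way, from Hoxb13 to Hoxb1, from Hoxc13 to Hoxc4 and from Hoxd13 to Hoxd1.

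The clusters also carry microRNA genes, small RNAs that repress target transcripts through bases 2 to 8, the seed, shown in capitals (RefSeq, GRCm38.p6). They are printed because near-identical copies sit in clusters that differed in H3K4me1: Mir10a lies in HoxB beside Hoxb4, Mir10b in HoxD beside Hoxd4, Mir196a-1 in HoxB beside Hoxb9, Mir196a-2 in HoxC between Hoxc10 and Hoxc9, and Mir196b in HoxA between Hoxa9 and Hoxa10.
mmu-miR-10a-5p: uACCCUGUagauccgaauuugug
mmu-miR-10b-5p: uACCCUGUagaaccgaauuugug
mmu-miR-196a-5p: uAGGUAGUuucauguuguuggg
mmu-miR-196b-5p: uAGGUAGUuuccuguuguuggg
The miR-10 pair share their seed and differ at 1 of 23 bases. The miR-196 pair likewise share theirs and differ at 1 of 22 bases. Both loci of miR-196a give the same mature sequence, from HoxB and from HoxC.

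The paralogs Hoxb4, Hoxc4 and Hoxd4 are shown because they lie in clusters with much, no and little H3K4me1. The 250 bases before each start are printed 5′ to 3′ on the plus strand (RefSeq, GRCm38.p6), with the dinucleotide CG, which reads the same on both strands, in capitals.
Hoxb4: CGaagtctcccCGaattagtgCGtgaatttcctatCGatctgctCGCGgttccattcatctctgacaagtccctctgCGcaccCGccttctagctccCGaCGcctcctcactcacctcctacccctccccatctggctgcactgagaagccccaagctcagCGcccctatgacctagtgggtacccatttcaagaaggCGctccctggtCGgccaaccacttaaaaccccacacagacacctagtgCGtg
Hoxc4: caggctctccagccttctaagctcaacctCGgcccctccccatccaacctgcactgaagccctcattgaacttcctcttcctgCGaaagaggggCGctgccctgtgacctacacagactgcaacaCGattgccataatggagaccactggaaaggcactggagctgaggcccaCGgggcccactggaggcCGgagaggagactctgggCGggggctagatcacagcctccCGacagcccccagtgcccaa
Hoxd4: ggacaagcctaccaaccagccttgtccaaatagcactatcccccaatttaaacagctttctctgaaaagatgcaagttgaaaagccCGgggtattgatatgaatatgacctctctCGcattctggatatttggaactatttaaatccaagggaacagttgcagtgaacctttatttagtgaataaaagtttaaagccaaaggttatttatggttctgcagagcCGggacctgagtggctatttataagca
Hoxb4 held 14 CG, Hoxc4 8 and Hoxd4 3, against a median of 6 over the 32851 promoters of the table. As many CG or more were found in 29.4%, 43.0% and 71.0% of those promoters. The table had an entry for 22 of the 38 members, so no summary over members was made. Hoxc4 was the only HoxC member with an entry (1 of 9), and the HoxA paralog, Hoxa4, had none. No H3K4me1 region could be placed on or off these sequences, and no link between CG and H3K4me1 was tested.

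H3K4me1 differed widely between the clusters. The HoxB window held 21 regions over 13.3 kb, HoxA held 4 regions over 1.5 kb, HoxD held 2 regions over 0.2 kb, and HoxC held none. HoxB thus had 88.7% of the 15 kb of H3K4me1 found in the 4 windows. EP300 peaks were present in HoxA (3 in each list) and HoxB (1 in replicate 1, 2 in replicate 2) and absent from HoxC and HoxD in both lists. No peak or region crossed the edge of a window.

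**Figure D1:**
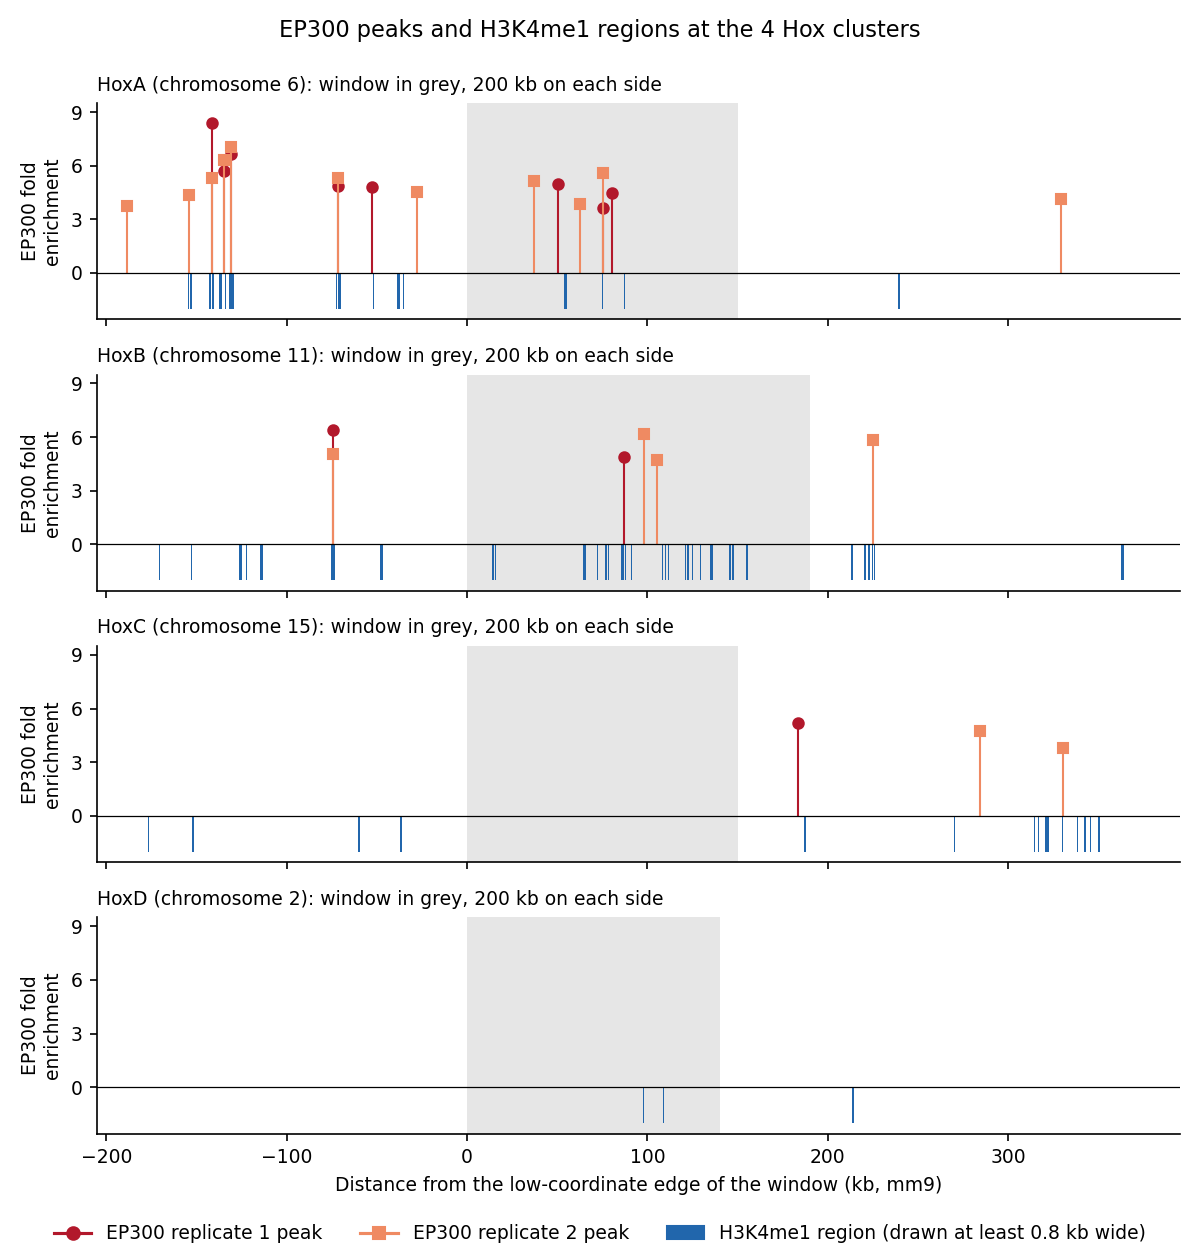
Each panel shows 1 Hox window (grey) with 200 kb on each side. The x axis is the distance in kb from the low-coordinate window edge, upright lines are EP300 peaks with their fold enrichment on the y axis (circles replicate 1, squares replicate 2), and bars below 0 are H3K4me1 regions. Short regions are drawn wider than their length. H3K4me1 regions are gathered in the middle of HoxB, where they cover 14.2% of a stretch whose ends were set at the regions themselves. The HoxC window is empty, and the HoxD window holds 2 regions of 100 bp.

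In HoxB, H3K4me1 covered 7.0% of the window, against 2.55% of the 200 kb below it and 1.55% of the 200 kb above it, 3.41 times the 2.05% of both flanks together. Chromosome 11 as a whole had 2.46% and all chromosomes together 1.504%. Of all consecutive 190 kb stretches, 5.58% held at least as much H3K4me1 as HoxB, and on chromosome 11 10.7% did. With 1 H3K4me1 list there is no replicate spread, and no difference between a window and its flanks was tested.

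The H3K4me1 of HoxB was gathered in its centre. Of the 21 regions, 19 lay between 96114000 and 96204949, where they covered 12.9 of 90.95 kb, or 14.2%. The ends of that stretch were set at the regions themselves, which raises its share, and it was not set beside other stretches of its length. Below that stretch, toward Hoxb13, came a gap of 48.4 kb without H3K4me1 (14.1% of gaps, each counted once, were as long). Beyond it lay 2 regions of 200 bp each at 96064100 and 96065400. Above it, at the end where Hoxb1 lies last in the RefSeq order, 35.05 kb to the window edge were free of H3K4me1. Hoxb13, a gene of the posterior body, sits apart from the other 9 HoxB genes.

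The widest HoxB region, 96114000 to 96116049, was 2050 bp wide and ranked 5506 of 59923 in the authors' order, with a highest log2 fold change of 4.44. The best-ranked, 96135500 to 96136999 (1500 bp), had rank 3752 and a log2 fold change of 4.55. The third in both width and rank, 96184850 to 96186299 (1450 bp), had rank 13091 and 4.11. These were well-ranked regions in a cluster whose other regions were mostly short and of middle or low rank.

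Over all 21 HoxB regions the width ranged from 150 bp to 2050 bp with a median of 450 bp, against 500 bp in the whole list, and 5 of 21 (23.8%) were 1000 bp wide or more, against 18.0% of the list. Their percentile of rank, where 100 is best, ranged from 5.00 to 93.7 with a median of 46.1. Only 2 of the 21 were in the top quintile of rank, which holds 20.0% of all regions, and 9 were in the upper 50% of rank (42.9%, against 50.0% of the list). Neighbouring HoxB regions were separated by a median of 3025 bp, and 5 of 20 gaps (25%) were at most 1000 bp, against 32.1% of gaps in the list.

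**Figure D2:**
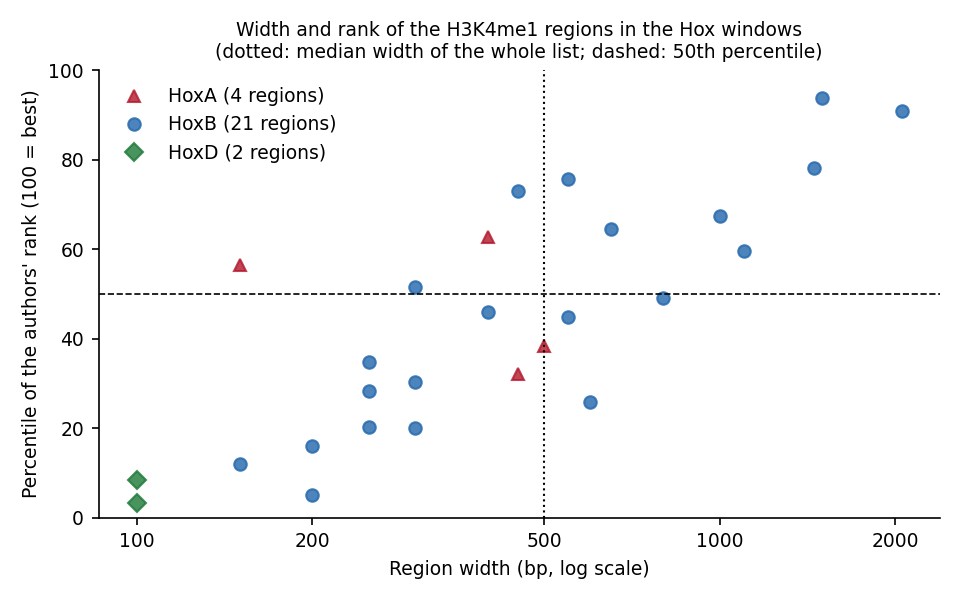
Each point is 1 H3K4me1 region of a Hox window, with its width in bp on a log x axis and its percentile of the authors' rank on the y axis (100 is best). HoxB points reach from 5.00 to 93.7, the 4 HoxA points lie between 32.2 and 62.8, and both HoxD points are at 100 bp and below 9.

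HoxB held 3 EP300 peaks and none of them was found in both lists. The replicate 1 peak, 96136651 to 96137407, had 35 tags, 4.9-fold enrichment and a significance of 52.4, on the scale of 10 times the -log10 p-value that starts at 50.0 in these lists. It covered the 300 bp gap between the best-ranked HoxB region and its neighbour at 96137300 to 96138299. The replicate 2 peaks, 96147334 to 96148486 (51 tags, 6.2-fold) and 96154611 to 96155431 (38 tags, 4.72-fold), lay 6335 bp and 2419 bp from the nearest H3K4me1. The nearest pair from different lists were 9927 bp apart, so the replicates gave different positions. At least 1 replicate 1 and 2 replicate 2 peaks were found in 14.6% of 190 kb stretches. Per 100 kb the HoxB window had 0.526 and 1.05 peaks, and its flanks 0.25 and 0.5, a mean difference of 0.414 (SD 0.195, n = 2) that became 0.0395 with flanks of 100 kb. In the flanks of HoxB, the peak at 95975028 to 95975958 was in both lists (6.38-fold and 5.08-fold), and a replicate 2 peak at 96274376 to 96275539 had 75 tags and 5.83-fold enrichment.

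In HoxA, H3K4me1 lay in 4 short regions and EP300 was detected in both lists, mostly at different places. The 4 H3K4me1 regions covered 1.00% of the window, against 1.41% of chromosome 6, and 31.5% of all 150 kb stretches held as much or more. The median 150 kb stretch held 0.15 kb, against 1.5 kb in HoxA. They were 52133850 to 52134299 (450 bp, rank 40635), 52134750 to 52135249 (500 bp, rank 36917), 52154600 to 52154999 (400 bp, rank 22316) and 52166900 to 52167049 (150 bp, rank 26018), with log2 fold changes of 3.49, 3.60, 4.22 and 3.82. The first pair were 450 bp apart, and none of the 4 was in the top quintile.

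All 10 HoxA features, peaks and regions together, lay within the 50.7 kb from 52116342 to 52167049. The 62.95 kb from there to the high-coordinate edge, the side of Hoxa13, were free of H3K4me1. That gap went on outside the window to 52319049, for 152 kb in all, and 4.96% of the gaps between neighbouring regions were as long or longer. Each gap was counted once whatever its length (median 3850 bp), so this share is not that of the genome lying in such gaps. The first 36.3 kb of the window, on the side of Hoxa2, were also empty.

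A single locus of the 4 clusters had EP300 in both lists. At HoxA, a replicate 1 peak at 52154382 to 52155590 and a replicate 2 peak at 52154810 to 52155692 overlapped by 781 bp, with summits 53 bp apart. The replicate 1 peak had 52 tags, 3.64-fold enrichment and a significance of 53.8. The replicate 2 peak had 40 tags, 5.59-fold enrichment and a significance of 60.1. Both overlapped the H3K4me1 region of 400 bp at 52154600, the best-ranked of HoxA, and both summits lay outside it, 221 bp and 168 bp beyond its upper edge. In strength this locus was low in both lists, at the 16.0th percentile of significance in replicate 1 and the 33.4th in replicate 2.

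The other 4 HoxA peaks were each in a single list. In replicate 1 they were 52130160 to 52131557 (69 tags, 5.00-fold) and 52159905 to 52161001 (46 tags, 4.47-fold). In replicate 2 they were 52116342 to 52117447 (52 tags, 5.14-fold) and 52142005 to 52143471 (68 tags, 3.86-fold). Their distances to H3K4me1 were 2293 bp, 4906 bp, 16403 bp and 6756 bp, so none had a region within 1000 bp. At least 3 peaks in each list were found in 2.74% of 150 kb stretches and in 4.0% of those of chromosome 6, the chromosome with the highest density of EP300 peaks among these 4.

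The local background of the HoxA peaks was above the median of all peaks and close to that of chromosome 6. Solved from tags and significance, it was 1.05 to 1.38 times the genome-wide level at the 6 peaks (median 1.25), the lowest value being that of the peak at 52159905, where the solution did not give a whole summit height. The medians over all peaks were 1.05 and 1.08 in the 2 lists, and 1.24 and 1.29 on chromosome 6. Its part in the number of peaks was not tested. The HoxA tag counts were 1.96 to 2.54 times the number the background gives.

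Across the 9 EP300 peaks of the 4 windows, strength was moderate. Tags ranged from 35 to 69 with a median of 51, against 43 in each whole list. Fold enrichment ranged from 3.64 to 6.20 with a median of 4.90, against 5.79 and 5.57 in the 2 lists. No peak was above the 66.8th percentile of significance in its list. In replicate 1, 1 of 4 peaks (25%, exact Clopper-Pearson 95% interval 0.631% to 80.6%) was found in the other list, against 42.9% of all peaks. In replicate 2 it was 1 of 5 (20.0%, interval 0.505% to 71.6%), against 34.8%. With so few peaks these intervals include the shares of the whole lists.

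H3K4me1 within 1000 bp was found for 2 of 4 Hox peaks in replicate 1 (50.0%, interval 6.76% to 93.2%), against 67.6% of the list, and for 1 of 5 in replicate 2 (20.0%, interval 0.505% to 71.6%), against 63.5%. Seen from the mark, 3 of the 27 H3K4me1 regions had EP300 of either list within 1000 bp (11.1%, interval 2.35% to 29.2%), against 24.9% of all regions. These 3 were the best-ranked HoxB region, its neighbour and the HoxA region at 52154600. Both HoxB regions overlapped the same replicate 1 peak, so the regions are not independent and the interval does not measure the difference from the list. The other 19 HoxB regions, among them the widest one, had none, and the widest lay 20602 bp from the nearest EP300 peak.

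The highest EP300 tag counts in the windows and flanks lay outside the clusters, below HoxA, where Skap2 is the next protein-coding gene beyond the Hox genes in the RefSeq order. The 200 kb on that side held 16 H3K4me1 regions over 10.05 kb (5.03%, 5.03 times the share in the window), 5 EP300 peaks of replicate 1 and 7 of replicate 2. The 200 kb on the side of Hoxa13 held 1 region over 0.35 kb and 1 replicate 2 peak. Per 100 kb the HoxA window had 2 EP300 peaks in each list, and both flanks together had 1.25 and 2. The mean difference of 0.375 peaks was smaller than the spread between the lists (SD 0.530, n = 2) and turned to -0.25 in the upper 50% of each list and to -0.0461 with windows widened by 20 kb, whereas it was 1 with flanks of 100 kb and 1.1 with flanks of 500 kb.

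Of the low-side peaks, 4 of 5 in replicate 1 (interval 28.4% to 99.5%, against 42.9% of the list) and 4 of 7 in replicate 2 (interval 18.4% to 90.1%, against 34.8%) were found in both lists, forming 4 loci. At 51937711 to 51939292 they had 155 and 163 tags with 8.4-fold and 5.30-fold enrichment. At 51944268 to 51945929 there were 132 and 133 tags (5.69-fold and 6.34-fold), at 51948110 to 51949814 83 and 169 tags (6.68-fold and 7.03-fold), and at 52007822 to 52009998 129 and 146 tags (4.86-fold and 5.29-fold). Each of these tag counts was above the highest of any peak inside the window, 69. All 4 loci overlapped H3K4me1, and 13 of the 16 regions on that side had EP300 within 1000 bp (81.2%, interval 54.4% to 95.95%), against 24.9% of all regions. Several of these regions lay around the same EP300 peak, so they are not independent and the interval does not measure the difference from the list. Among the flanks, such shares were computed only for this one, where EP300 peaks were most numerous. The solved background at these peaks was also high, from 1.81 to 3.17 times the genome-wide level, a level of 1.5 or more being reached by 10.3% of replicate 1 and 11.7% of replicate 2 peaks. The tags at these peaks were 1.74 to 2.62 times the number the background gives, against 1.96 to 2.54 at the HoxA window peaks. The part of the background in the higher tag counts was not tested. The locus nearest to HoxA ended 70.0 kb below the window, and the single-list peak at 52051849 to 52052853 (replicate 2, 50 tags, 4.53-fold) was nearest of all at 27.1 kb.

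**Figure D3:**
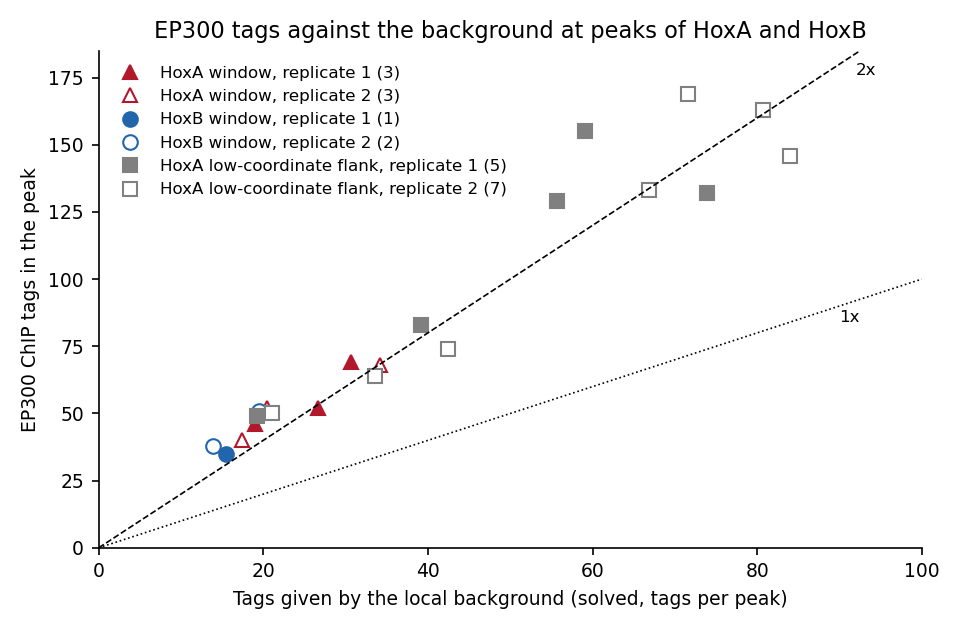
Each point is 1 EP300 peak, with the tags that the solved local background gives on the x axis and the ChIP tags on the y axis (filled symbols replicate 1, open symbols replicate 2, grey squares the 12 peaks of the 200 kb below HoxA). The dotted and dashed lines mark equal and doubled tags. The 9 peaks of the HoxA and HoxB windows lie at 35 to 69 tags, while the 4 loci shared below HoxA reach from 83 to 169 tags with a higher background.

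HoxC had no H3K4me1 region and no EP300 peak. The H3K4me1-free stretch around it ran from 102693050 to 102916649, or 223.6 kb, so it began 36.95 kb below the window and ended 36.65 kb above it, and 3.33% of gaps were as long or longer. In replicate 1 no EP300 peak lay between 102327749 and 102913012 (585 kb), and in replicate 2 none between 102510040 and 103013991 (504 kb), lengths reached by 14.6% and 13.4% of the stretches between neighbouring peaks. These shares of gaps and stretches count each once, whatever its length. The flanks had H3K4me1 over 0.85% and 3.30% of their length, against 1.97% of chromosome 15. Counted by windows, emptiness was common, as 47.7% of 150 kb stretches held no H3K4me1 and 53.8% held no EP300 peak. The high-side flank had 1 peak in replicate 1, at 102913013 to 102913651 (5.21-fold), and 2 in replicate 2, at 103013992 to 103014594 (4.72-fold) and 103059889 to 103060641 (3.81-fold), none of them in both lists.

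HoxD had only 2 H3K4me1 regions, at 74577450 to 74577549 and 74588350 to 74588449. Both were 100 bp wide, the shortest length in the list, which 5.49% of regions have. They ranked 54800 and 57993 of 59923, with log2 fold changes of 3.23 and 3.39. The window was covered to 0.143%, against 0.113% of both flanks, a difference whose sign changed with flanks of 100 kb (-0.0821 percentage points) or 500 kb (-0.122) and with windows widened by 20 kb (-0.00139). Of all 140 kb stretches, 52.5% held no more H3K4me1 than HoxD. In contrast to HoxC, the surroundings were nearly empty too, with no region in the 200 kb on the side of Hoxd13 and 1 region of 450 bp in the 200 kb on the side of Hoxd1.

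The stretch without H3K4me1 that ended at the first HoxD region began at 74164200 and was 413 kb long, a length reached by 1.82% of gaps. No EP300 peak lay in HoxD or its flanks, and 55.7% of 140 kb stretches had none. The replicate 1 list had no peak from 74164312 to 75520574 (1356 kb), and the replicate 2 list none from 73612826 to 75226486 (1614 kb). Stretches this long made up 3.8% and 1.62% of those between neighbouring peaks of each list. Here too each gap or stretch was counted once, so these are not shares of the genome lying in ones as long. HoxD thus lay in a longer EP300-free stretch than HoxC in each list.

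**Figure D4:**
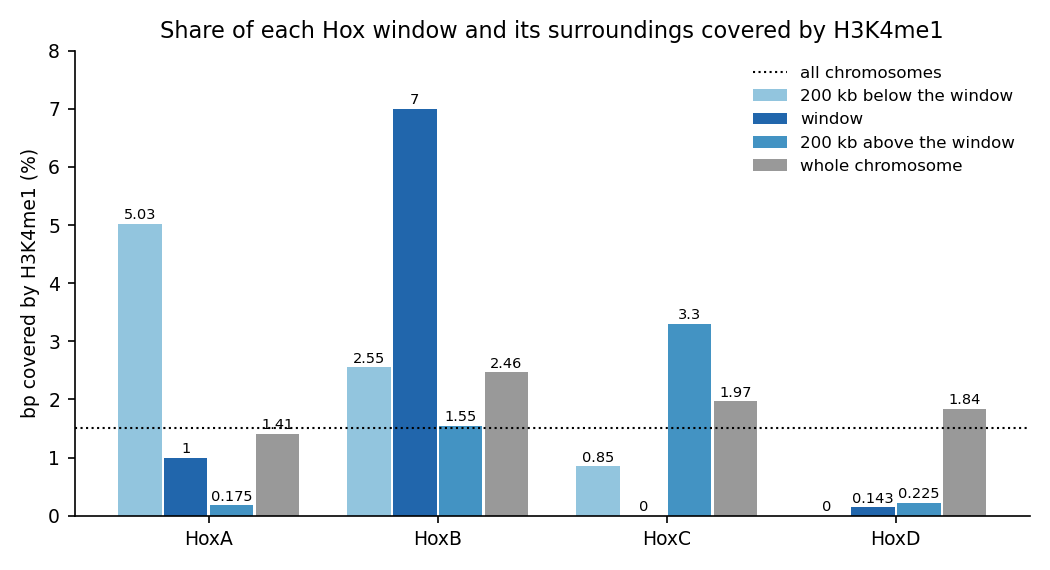
Bars give the percent of bp covered by H3K4me1 (y axis, from 0) in each Hox window, in the 200 kb below and above it in coordinate, and over its chromosome. The dotted line is the share over all chromosomes, 1.504%. HoxB stands at 7.0%, above both of its flanks, while HoxA (1.00%) is below its low-coordinate flank (5.03%) and above its high-coordinate flank (0.175%), and HoxC is at 0.

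In order of H3K4me1 coverage the clusters were HoxB, HoxA, HoxD and HoxC, and the last pair differed by 2 regions of the shortest length. Each list gives only features above the authors' threshold, so a window without a region or peak may still carry signal below it.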

How the data were processed

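EP300 and H3K4me1 ChIP-seq of melan-a cells was deposited as 2 EP300 peak lists and 1 H3K4me1 list in mm9, per the submitters' processing notes. Per the file headers, the authors called EP300 peaks with MACS 1.4.1 against each replicate's control, at a p-value of 1e-05, and deposited a tag count, a significance score (10 times the -log10 p-value), a fold enrichment and a false discovery rate in percent per peak. For H3K4me1 the authors deposited a rank, a score, a log2 fold change, a -log10 p-value that stops at 100 and a false discovery rate as a fraction. For H3K4me1 the caller, the control and the pooling of replicates, and for both marks the aligner, are not stated in the labels or headers. These values are the authors' own and describe peaks within their list.

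Python 3.11.15 with pandas 2.3.3 and scipy 1.17.1 was used here. Overlap means at least 1 bp, nearby means within 1000 bp, flanks are 200 kb on each side. Coverage is the union of regions, clipped to the window. Windows were set beside consecutive stretches of their own length on all autosomes and X, counted from the first H3K4me1 region of each chromosome. Shares of gaps between regions, and of stretches between neighbouring peaks, count each once and are not weighted by length. The local background is the mean at which the Poisson tail gives the deposited significance, over the peak length or 400 bp. With it the summit height was whole to within 0.1 tags for 8 of the 9 Hox peaks and for 96.9% and 96.1% of the lists. Interval functions were tested on simulated data.

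The members and lists were chosen with earlier results of these data known. Named were all EP300 peaks in a window, the 3 widest and 3 best-ranked regions and the longest H3K4me1-free stretch per window, and shared or nearest EP300 peaks in the flanks. Other features named, among them the 2 HoxB regions below the gap, the fourth HoxA region and single-list peaks of the HoxC flank, were chosen after their values were seen. So was the central HoxB stretch with its 14.2% coverage. Members were set beside whole-list shares without a test, as the lists hold no replicate spread for H3K4me1. The exact Clopper-Pearson 95% interval of a share reflects counting error alone.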

Additional observations from a re-analysis of the deposited data

How the results depend on the processing

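The H3K4me1 share of the window minus that of its flanks was -1.6 percentage points in HoxA, 4.95 in HoxB, -2.08 in HoxC and 0.0304 in HoxD. With flanks of 100 kb it was -0.95 in HoxA, -1 in HoxC and -0.0821 in HoxD. With flanks of 500 kb it was -0.855 in HoxA, 3.875 in HoxB, -4.325 in HoxC and -0.122 in HoxD. With windows widened by 20 kb it was -2.41, 3.22, -2.69 and -0.00139 in the order HoxA to HoxD. The upper 50% of regions gave 3.53 in HoxB and -1.79 in HoxC, and regions of at least 500 bp gave 4.16 and -1.525. HoxA and HoxB kept their sign in all of these settings. HoxC did too, but its window held 0 H3K4me1 in each, so its difference could not have been positive. Every setting pooled both flanks. Taken apart, the HoxA window (1.00%) was below its low-coordinate flank (5.03%) and above its high-coordinate flank (0.175%). HoxD, with 2 regions, changed sign in 3 settings, and the cause was not tested. It was 0 with the upper 50% of regions and with regions of at least 500 bp, where its window and flanks held none.

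EP300 peaks per 100 kb, window minus flanks, averaged 0.375 in HoxA, 0.414 in HoxB, -0.375 in HoxC and 0 in HoxD. Leaving out 1 EP300 replicate gave 0 to 0.75 in HoxA, 0.276 to 0.553 in HoxB and -0.5 to -0.25 in HoxC. The upper 50% of each list gave -0.25 in HoxA and 0 in HoxC. Flanks of 100 kb gave 1 in HoxA and 0.0395 in HoxB, and flanks of 500 kb gave 1.1 in HoxA, -0.7 in HoxC and -0.05 in HoxD. Widened windows gave -0.0461 in HoxA and -0.625 in HoxC. Flanks of 100 kb leave out the shared loci that lay 130.2, 134.1 and 140.7 kb below HoxA. They keep the HoxB flank peaks, which lay 34.4 kb above and 74.0 kb below that window. The cause of the other shifts was not tested. A false discovery rate of at most 5% could remove no peak, as the highest values in the whole lists were 2.14% in replicate 1 and 0.56% in replicate 2.

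The 2 overlapping peaks of the single shared locus became 0 in the upper 50% of each list. Of the 9 Hox EP300 peaks, 3 had H3K4me1 within 1000 bp, 6 within 5000 bp, and 1 to 2 when a replicate was left out. Of the 27 regions, 3 had EP300 within 1000 bp, 8 within 5000 bp, 1 with shared loci only, and 1 to 3 when a replicate was left out. No paired analysis was possible because the 2 EP300 replicates are lists of 1 sample and H3K4me1 has 1 list.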
